A study of Mus musculus with 2 samples.

Results

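Cxcl9 and Cxcl10 encode secreted CXC chemokines, 2 of the 22597 genes measured in a single-cell RNA library of lung monocytes and interstitial macrophages. They were chosen because their levels in the Tgfbr2-KO pool stood above those in the control pool, so the levels by genotype are a description with no test. They are followed here over 4570 cells, into marker-gated cell states, into each other's cells and into empty droplets.

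The Tgfbr2-KO cells came from LyzM-Cre Tgfbr2 fl/fl bone marrow, in which the lysozyme promoter drives Cre in monocytes, macrophages and granulocytes and so deletes Tgfbr2, the type 2 receptor for TGF-beta. The control cells came from Tgfbr2 fl/fl marrow, which carries no Cre. Both marrows were CD45.1-CD45.2+ and had been given to IM-DTR hosts (CD45.1+CD45.2+) after irradiation, and 50 ng of diphtheria toxin was given 10 days before the lungs were taken. In IM-DTR hosts the toxin removes interstitial macrophages, so both pools hold donor cells that refilled an irradiated and depleted lung, and neither is a resting lung. Lung suspensions of 5 chimeras were pooled, where the labels leave unsaid whether that is the number per genotype or in all, and donor cells were sorted as Ly6G- and SiglecF-, which leaves out neutrophils and alveolar macrophages, and as CD64+, CD11b+ and SSClo. Each genotype received its own hashtag antibody before the cells were mixed and loaded as 1 droplet library. With 1 pool of cells per genotype no difference between genotypes has a replicate check, so no p-value is given. Ranges in parentheses are exact 95% intervals that cover counting error only and treat each UMI or cell as independent.

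The Tgfbr2-KO pool held 2674 cells with a median of 10277.5 gene UMIs (unique molecular identifiers, each marking 1 captured RNA), and the control pool held 1896 cells with a median of 7785. Levels are UMIs per 1000000 gene UMIs (UPM), and shares of cells were taken after each cell was thinned to 3000 UMIs, which left 2591 Tgfbr2-KO and 1816 control cells. Tgfbr2 itself stood at 195 UPM in the Tgfbr2-KO pool and 215 UPM in the control pool. That does not check the labels, since 3′ reads can lie outside the deleted part of the gene. Macrophage markers (7 genes) summed to 11455 and 12751 UPM in Tgfbr2-KO and control cells. T or NK cell markers (10 genes) summed to 16.0 and 9.57 UPM, with 3 of them at 0 in control cells, neutrophil markers (8 genes) to 278 and 158 UPM and structural cell markers (10 genes) to 134 and 67.6 UPM. Classical monocyte markers (8 genes) summed to 1395 UPM in Tgfbr2-KO cells and 482 UPM in control cells. The part of RNA from other cell types in the chemokine levels was not tested.

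CXCL9 and CXCL10 both bind the receptor CXCR3, which is carried by activated T cells and NK cells, and so draw those cells into inflamed tissue. In mouse macrophages Cxcl9 is known chiefly as a target of interferon-gamma. Cxcl10 also answers type I interferon and NF-kB, and can therefore be switched on by microbial or damage signals without T or NK cell help.

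The 2 genes are neighbours on chromosome 5. Cxcl9 (ENSMUSG00000029417) lies at chr5:92321331-92328079 and Cxcl10 (ENSMUSG00000034855) at chr5:92346638-92348889 of GRCm38.p6, both protein-coding and on the minus strand. The 18558 bases between them hold 0 annotated genes. Cxcl11, annotated next to them as a transcribed pseudogene, is not analysed here. Their promoters are shown because cells with Cxcl9 only and cells with Cxcl10 only differed in other genes, as described further on. Each run is RefSeq sequence of GRCm38.p6, minus strand, from 250 bases before to 50 bases after the gene's start, at chr5:92328030-92328329 for Cxcl9 and chr5:92348840-92349139 for Cxcl10. Capitals mark matches to the searched motifs.
Cxcl9 promoter: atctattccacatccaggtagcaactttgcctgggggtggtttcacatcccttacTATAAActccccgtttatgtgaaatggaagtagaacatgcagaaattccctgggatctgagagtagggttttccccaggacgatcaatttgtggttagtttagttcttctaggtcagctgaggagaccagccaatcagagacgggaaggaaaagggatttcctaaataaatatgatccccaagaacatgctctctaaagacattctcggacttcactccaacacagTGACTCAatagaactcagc
Cxcl10 promoter: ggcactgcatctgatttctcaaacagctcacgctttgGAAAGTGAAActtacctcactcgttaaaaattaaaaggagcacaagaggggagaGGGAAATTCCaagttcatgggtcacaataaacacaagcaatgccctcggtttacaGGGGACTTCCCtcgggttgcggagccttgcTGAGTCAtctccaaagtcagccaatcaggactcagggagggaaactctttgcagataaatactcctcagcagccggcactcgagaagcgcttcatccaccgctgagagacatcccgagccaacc
Both strands were searched for the gamma-activated site (GAS, TTCNNNGAA), the interferon-stimulated response element (ISRE, GAAANNGAAA), the NF-kB consensus, AP-1 (TGANTCA) and the TATA box (TATAAA). The Cxcl10 window held an ISRE match, GAAAGTGAAA, 213 to 204 bases before the start. It also held the NF-kB match GGGAAATTCC at 159 to 150 bases, and a pair of NF-kB matches that overlap each other, GGGGACTTCC and GGGACTTCCC, between 104 and 94 bases. An AP-1 match, TGAGTCA, lay 74 to 68 bases before the start. The Cxcl9 window held a TATAAA 195 to 190 bases before the start and the AP-1 match TGACTCA from base 32 after it. Neither window held the GAS letters, and the Cxcl9 window held no ISRE or NF-kB letters either. Of all 27025 promoter windows of the same length, 3.49% held the ISRE, 8.18% the NF-kB consensus, 8.47% GAS, 7.93% AP-1 and 14.2% TATAAA. A match is a description of letters and not a bound site.

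Cxcl9 was among the most abundant messages of the Tgfbr2-KO pool and near the floor in most control cells. It stood at 1539 UPM (1525 to 1553) in Tgfbr2-KO cells, from 47281 UMIs, and at 43.0 UPM (39.9 to 46.3) in control cells, from 701 UMIs. The ratio was 35.8-fold (33.2 to 38.6). By summed UMIs it ranked 111 of the 15919 genes seen in the Tgfbr2-KO pool and 3176 of 15168 in the control pool. Cxcl10 differed far less. It stood at 639 UPM (630 to 648) in Tgfbr2-KO cells and 291 UPM (283 to 300) in control cells, 2.19-fold higher (2.13 to 2.27), at ranks 239 and 498. Of the 10237 genes tested, 11.9% were at least 1.5-fold higher in Tgfbr2-KO cells and 7.53% at least 1.5-fold lower, and both members, chosen on this contrast, were among the higher ones. Each Cxcl10 UMI was accompanied by 2.41 Cxcl9 UMIs (2.37 to 2.45) in the Tgfbr2-KO pool and by 0.148 (0.136 to 0.160) in the control pool.

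The share of cells with Cxcl9 differed in the same way, whereas the share with Cxcl10 was close in both pools. After thinning, 33.8% (32.0 to 35.7) of Tgfbr2-KO cells and 3.08% (2.34 to 3.99) of control cells held a Cxcl9 UMI, or 39.7% and 5.64% without thinning. For Cxcl10 the thinned shares were 30.2% (28.4 to 32.0) of Tgfbr2-KO cells and 25.6% (23.6 to 27.6) of control cells, or 42.1% and 34.5% without thinning. Free RNA in the droplets can place a UMI in a cell that does not make it. The largest free RNA content that the rest of the profile allowed, set by the gene most depleted relative to empty droplets, could give up to 19.9% of Tgfbr2-KO cells a Cxcl9 UMI and up to 7.85% of control cells. The 3.08% of control cells lay below that bound, so the control share is not read as expression. The control level, 43.0 UPM, was above the 27.2 UPM that free RNA could give, and was carried by few cells, as given next. The Cxcl10 shares lay above their bounds of 13.6% in Tgfbr2-KO cells and 5.22% in control cells.

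Within the Tgfbr2-KO pool Cxcl9 ran from 0 to 299 UMIs in a cell. The median cell held 0, the 75th percentile 9 and the 95th percentile 115, and the 1061 cells with any held a median of 19. The top 267 cells carried 72.5% of its UMIs. In the control pool 107 cells held a Cxcl9 UMI, with a median of 1. There 14 cells with at least 5 UMIs carried 83.5% of all control Cxcl9, and the highest cell alone, with 268 UMIs, carried 38.2%. Of these 14 cells 4 passed an activation gate, described below, and 2 had hashtag counts less than 2-fold apart, as had 11 control cells in all. Without the highest control cell the log2 ratio of Cxcl9 was 5.85, against 5.16 with it.

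Cxcl10 was spread more evenly between the pools. Its highest cell held 315 UMIs in the Tgfbr2-KO pool and 65 in the control pool, and the 90th percentile stood at 20 and 8 UMIs. The 1125 Tgfbr2-KO cells with Cxcl10 held a median of 6 UMIs and the 654 control cells a median of 4. On thinned counts 130 Tgfbr2-KO cells (5.02%) and 28 control cells (1.54%) reached 10 Cxcl10 UMIs. For Cxcl9 341 Tgfbr2-KO cells (13.2%) and 4 control cells (0.220%) did so. The pools thus lay close at the low end of the Cxcl10 distribution and apart at its high end, while for Cxcl9 they were apart throughout.

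**Figure D1:**
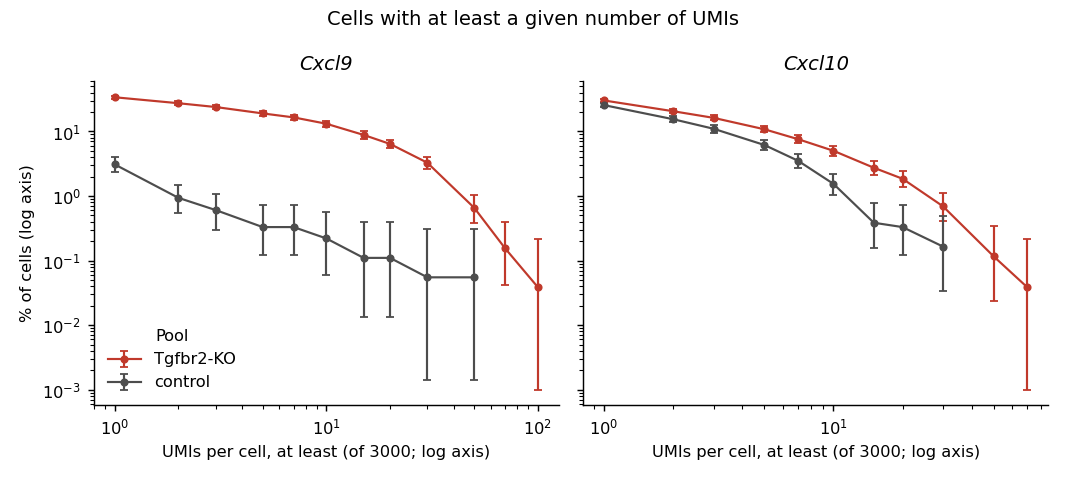
Percentage of cells (log axis) holding at least a given number of UMIs (log axis) of Cxcl9 (left) or Cxcl10 (right) after thinning to 3000 UMIs, for 2591 Tgfbr2-KO cells (red) and 1816 control cells (grey), with exact 95% binomial intervals. The Cxcl9 curves start at 33.8% of Tgfbr2-KO and 3.08% of control cells, whereas the Cxcl10 curves start at 30.2% and 25.6% and separate towards high counts.

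Cells were next placed in 8 states by marker genes, using neither chemokine. Cells with few complement C1q transcripts were split into Ly6c2+ cells, cells with patrolling monocyte markers and others. C1q+ macrophages were split into Folr2/Lyve1/Cd163+ cells, which carry perivascular macrophage genes, Fn1/Gpnmb+ cells, cells with Mrc1 (the gene of CD206) and cells without it, called Mrc1-0. Proliferating cells were set apart first. The Ly6c2+ gate was led by classical monocyte markers (8827 UPM in Tgfbr2-KO and 12527 UPM in control cells). The patrolling-marker gate held more of the Fn1 and Gpnmb macrophage list (2455 and 4309 UPM) than of patrolling markers (1595 and 2144 UPM), so neither it nor the remaining C1q-low cells are given a cell type. The gates are named by their genes, and their minimums were set after the files were seen.

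Cxcl9 was higher in Tgfbr2-KO than in control cells in all 8 states. Among Tgfbr2-KO cells it was highest in Mrc1-0 macrophages, at 2973 UPM in 728 cells, and next in Ly6c2+ cells, at 2487 UPM in 196 cells. In control cells of those states it stood at 130 UPM and 27.1 UPM (456 and 25 cells), giving ratios of 22.8 (20.9 to 25.0) and 91.8 (42.1 to 250). The single highest control cell lay in the Mrc1-0 gate, which stood at 58.7 UPM (51.2 to 67.1) without it, for a ratio of 50.6. The Mrc1-0 gate held 28.1% of Tgfbr2-KO cells and 57.5% of their Cxcl9 UMIs. Among Tgfbr2-KO cells Folr2/Lyve1/Cd163+ macrophages were lowest, at 148 UPM in 355 Tgfbr2-KO cells and 13.4 UPM in 198 control cells.

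The other Tgfbr2-KO states lay in between. Several control states had lower values than the Folr2/Lyve1/Cd163+ one, but no order is read from them. Of control Cxcl9, free RNA could give up to 18.2 UPM in Folr2/Lyve1/Cd163+ and 24.0 UPM in Fn1/Gpnmb+ cells. In proliferating and the remaining C1q-low control cells the bounds were 6.70 and 11.1 UPM. These bounds were above the control levels observed, so those levels are not read as expression. In Mrc1+, Mrc1-0 and Ly6c2+ control cells the level was above its bound. Mrc1+ macrophages, the most numerous, had 729 UPM in 952 Tgfbr2-KO cells and 22.6 UPM in 903 control cells. Fn1/Gpnmb+ cells had 797 and 5.85 UPM, and proliferating cells 791 and 5.10 UPM, in Tgfbr2-KO and control cells. Patrolling-marker cells had 1367 UPM in 76 Tgfbr2-KO cells and no UMI in 36 control cells. With the control level set at a floor of 3 UMIs the ratio was 154. That is not a lower limit, as the control interval reached 10.9 UPM, above the floor of 8.85 UPM. The remaining C1q-low cells had 1694 UPM in Tgfbr2-KO cells and 9.40 UPM, from 2 UMIs, in control cells. That gate held different cells in each pool, with dendritic markers at 266 UPM in Tgfbr2-KO and 1884 UPM in control cells and structural markers at 1201 and 334 UPM, and the part of this in the ratio was not tested.

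Cxcl10 was much flatter over the states. In Tgfbr2-KO cells it ran from 388 UPM in patrolling-marker cells and 391 UPM in Folr2/Lyve1/Cd163+ macrophages to 954 UPM in Ly6c2+ cells. In control cells it ran from 58.7 UPM in Ly6c2+ cells to 564 UPM in proliferating cells, with Mrc1+ macrophages at 323 UPM and Mrc1-0 macrophages at 316 UPM. The Tgfbr2-KO to control ratio was 16.3 (9.48 to 30.6) in Ly6c2+ cells, between 1.69 and 2.86 in 6 states, and 1.18 (1.05 to 1.34) in proliferating cells. The control level of Ly6c2+ cells came from 13 Cxcl10 UMIs in 25 cells. The order of states therefore differed between the chemokines. In Folr2/Lyve1/Cd163+ Tgfbr2-KO macrophages there were 0.378 Cxcl9 UMIs per Cxcl10 UMI, and in Mrc1-0 macrophages 3.76.

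**Figure D2:**
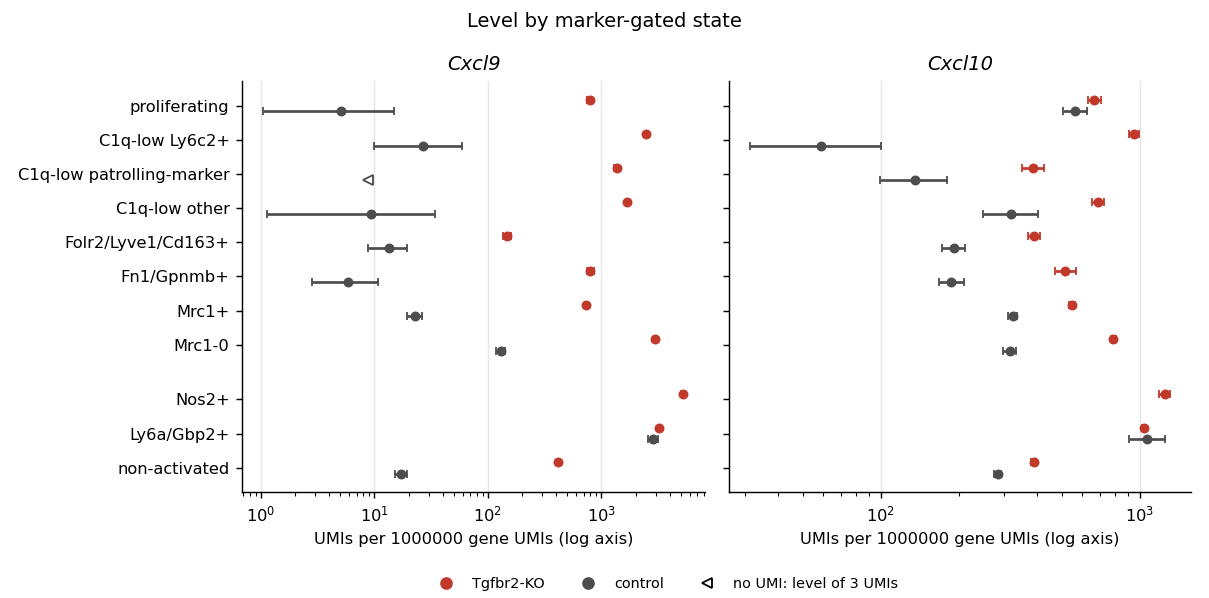
Level of Cxcl9 (left) and Cxcl10 (right) in UMIs per 1000000 gene UMIs (log axis) in each marker-gated state, for Tgfbr2-KO (red, upper) and control cells (grey, lower), with exact 95% Poisson intervals, for groups of at least 10 cells. An open triangle stands for a group with no UMI and is placed at the level of 3 UMIs. Over the 8 states Cxcl9 ran from 148 to 2973 UPM in Tgfbr2-KO cells and stood at 130 UPM or less in control cells. The Cxcl10 values of the pools lay closer except in Ly6c2+ cells. The bottom rows show the activation gates described below. There Cxcl9 stood at 5190 UPM in Nos2+ Tgfbr2-KO cells and 2860 UPM in 18 Ly6a/Gbp2+ control cells.

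Activation was gated separately, by Nos2 (inducible nitric oxide synthase) or by at least 2 UMIs of Ly6a and Gbp2, both interferon-induced. The gates took 769 Tgfbr2-KO cells (29.7%) and 20 control cells (1.10%). The Tgfbr2-KO cells in them carried 83.2% of the pool's Cxcl9 UMIs and 61.9% of its Cxcl10 UMIs. By state they made up 59.2% of Ly6c2+, 43.3% of Mrc1-0, 16.2% of Mrc1+ and 13.2% of Folr2/Lyve1/Cd163+ Tgfbr2-KO cells. Nos2+ Tgfbr2-KO cells, 71 in number, had the highest level of Cxcl9 of the named gates, at 5190 UPM with a UMI in 85.9% of cells, and 1249 UPM of Cxcl10.

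In the Ly6a/Gbp2 gate, Cxcl9 stood at 3243 UPM in 698 Tgfbr2-KO cells and at 2860 UPM in 18 control cells. The highest control cell was 1 of those 18, and the other 17 stood at 1157 UPM (983 to 1353), so that the ratio was 1.13 with that cell and 2.80 without it. Of these cells 73.8% in the Tgfbr2-KO pool and 27.8% in the control pool held Cxcl9. Cxcl10 stood at 1043 UPM in Tgfbr2-KO and 1070 UPM in control cells of the gate. The control values rest on few cells.

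Outside the activation gates the chemokines parted. The cells there were not matched for activation, as Nos2, Ly6a and Gbp2 summed to 127 UPM in Tgfbr2-KO and 19.6 UPM in control cells. The part of this remaining difference in the chemokine ratios of non-activated cells was not tested. Cxcl9 stood at 413 UPM (404 to 422) in 1822 Tgfbr2-KO cells and 17.2 UPM (15.3 to 19.4) in 1796 control cells, 23.9-fold apart (21.2 to 27.1), with UMIs in 16.5% and 2.84% of cells. Free RNA could give at most 95.7 UPM of Cxcl9 in these Tgfbr2-KO cells and 17.2 UPM in these control cells. The control bound is set by Ly6a, which the gate itself lowers, and the bound over all control cells was 27.2 UPM. As a share it could reach 25.0% of the Tgfbr2-KO cells, so the level of the Tgfbr2-KO cells, but not their share, stood above the bound. Cxcl10 stood at 389 UPM in Tgfbr2-KO and 283 UPM in control cells, 1.38-fold apart (1.33 to 1.43), with UMIs in 23.9% and 25.3% of cells. No order is read from those shares, since they run against the levels.

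The split between the chemokines was seen in several states of non-activated cells but not in all. Cxcl9 was 37.6-fold higher in Tgfbr2-KO Mrc1-0 macrophages, at 915 UPM and 24.4 UPM in control cells, and 17.4-fold higher in Mrc1+ macrophages. Cxcl10 was 1.04-fold (0.96 to 1.12) in Mrc1-0 and 1.32-fold in Mrc1+ macrophages, and in proliferating cells it was lower, at 387 UPM in 81 Tgfbr2-KO cells and 564 UPM in 40 control cells. In Ly6c2+ cells both were higher in Tgfbr2-KO cells, Cxcl9 25.8-fold (8.75 to 125) and Cxcl10 19.3-fold (10.1 to 42.4), and in Fn1/Gpnmb+ cells Cxcl10 was 2.61-fold higher beside 59.3-fold for Cxcl9. In patrolling-marker cells Cxcl9 was at 26.5 UPM in Tgfbr2-KO cells and had no UMI in control cells. Cxcl10 in non-activated macrophages without Mrc1 was thus within counting error of the control level while Cxcl9 was not.

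Both chemokines stood higher in Tgfbr2-KO cells with more Ly6a and Gbp2 UMIs, Cxcl9 more steeply so. Cxcl9 stood at 289 UPM in cells with none, 959 with 1, 1975 with 2 and 6230 with 11 or more. Cxcl10 stood at 313, 727, 872 and 1739 UPM in the same cells. Control cells with 0, 1 and 2 such UMIs had 10.9, 135 and 536 UPM of Cxcl9 and 281, 344 and 788 UPM of Cxcl10. At an equal count of 0, Cxcl10 was close in both pools and Cxcl9 was not. There were 459 Tgfbr2-KO and 98 control cells with 1 or 2 such UMIs, next to the gate's limit.

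**Figure D3:**
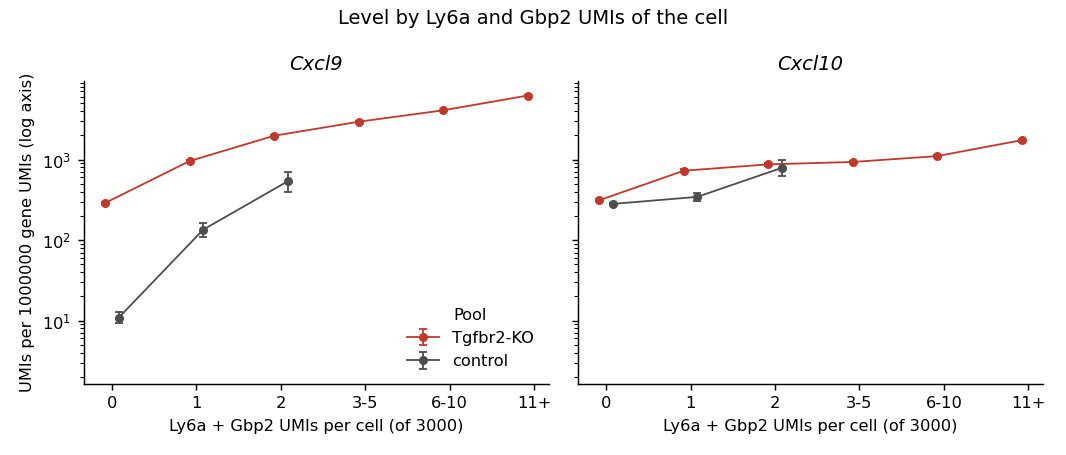
Level of Cxcl9 (left) and Cxcl10 (right) in UMIs per 1000000 gene UMIs (log axis) by the number of Ly6a and Gbp2 UMIs in the thinned cell, for Tgfbr2-KO (red) and control cells (grey), with exact 95% Poisson intervals, for bins of at least 10 cells. With no Ly6a or Gbp2 UMI, Cxcl9 stood at 289 UPM in Tgfbr2-KO and 10.9 UPM in control cells and Cxcl10 at 313 and 281 UPM.

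Over the Tgfbr2-KO pool as a whole the chemokines were found together more often than the product of their shares. In the Tgfbr2-KO pool 406 thinned cells (15.7%) held both, against a product of 10.2%, while 471 held Cxcl9 only, 376 Cxcl10 only and 1338 neither. In the control pool 26 cells (1.43%) held both, against a product of 0.788%, while 30 held Cxcl9 only, 438 Cxcl10 only and 1322 neither. Cxcl10 was found in 46.3% of Tgfbr2-KO cells with Cxcl9 and 21.9% of those without it. In control cells the shares were 46.4% and 24.9%, but the control cells with Cxcl9 rest on a share below its free RNA bound of 7.85%, so their overlap with Cxcl10 is given as values only. Seen from Cxcl10, 51.9% of Tgfbr2-KO cells with Cxcl10 also held Cxcl9, and 5.60% of control cells with Cxcl10 did. The Cxcl9 shares over all cells were already 33.8% and 3.08%, so no difference in overlap is read from this. The 5.60% also lay below the control bound.

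The overlap rose with the Cxcl9 count, but the share with Cxcl10 was close from 1 to 9 Cxcl9 UMIs. Among Tgfbr2-KO cells the share with Cxcl10 was 21.9% at 0 Cxcl9 UMIs, 38.1% at 1, 42.6% at 2 to 4 and 41.4% at 5 to 9. It was 53.5% at 10 to 29 and 58.8% at 30 or more. The mean number of Cxcl10 UMIs per cell over those bins was 0.764, 2.14, 2.41, 2.88, 5.00 and 7.04. Even the cells richest in Cxcl9 thus held no detectable Cxcl10 in many cases at this depth. Within the Ly6a/Gbp2 gate the Tgfbr2-KO share with both was 35.7% (32.1 to 39.4), an interval that holds the product of 32.6%. Cxcl10 was still found there more often beside Cxcl9, in 48.3% (44.0 to 52.8) of cells with Cxcl9 and 32.2% (25.5 to 39.5) without it. Outside the gates the share with both was 6.64% (5.54 to 7.88) against 3.95%. Cells with Cxcl9 were also deeper, with median raw totals of 14346 UMIs in cells with both, 14415 with Cxcl9 only, 9636 with Cxcl10 only and 8652 with neither; the part of total RNA in these overlaps was not tested beyond thinning.

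The Tgfbr2-KO classes differed in makeup. The activation gates took 70.2% of cells with both, 61.8% with Cxcl9 only, 16.2% with Cxcl10 only and 9.87% with neither. Mrc1 was detected in 38.4% of cells with both, 33.1% with Cxcl9 only, 71.3% with Cxcl10 only and 65.8% with neither. In both measures cells with Cxcl10 only lay nearer to cells with neither, and cells with Cxcl9 only nearer to cells with both.

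The pathways known to feed the genes were compared over whole lists between the pools. Of 20 interferon-gamma response genes tested, 16 were at least 1.5-fold higher in Tgfbr2-KO cells and 0 lower, beside 11.9% and 7.53% of all genes, with a median log2 ratio of 1.76 beside 0.09 over all genes tested. Irf1, an interferon-induced transcription factor, stood at 186 UPM in Tgfbr2-KO and 44.2 UPM in control cells. The interferon-induced GTPase genes Gbp2 and Iigp1 stood at 305 and 161 UPM in Tgfbr2-KO cells, against 19.7 and 5.46 UPM in control cells. The receptor gene Ifngr1 (184 and 185 UPM in Tgfbr2-KO and control cells) and the kinase gene Jak1 (281 and 319 UPM) were not past 1.5-fold.

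Of 18 type I interferon response genes 14 were higher and 0 lower, beside 11.9% and 7.53% of all genes, with a median log2 ratio of 1.48. Rsad2, an antiviral enzyme, stood at 108 UPM in Tgfbr2-KO cells and 14.4 UPM in control cells, and Isg15, a ubiquitin-like modifier, at 84.9 and 27.7 UPM. Of 12 NF-kB response genes 0 were higher and 4 lower, beside 7.53% of all genes lower, with a median log2 ratio of -0.43. Tnf stood at 360 UPM in Tgfbr2-KO cells and 617 UPM in control cells, and Nfkb1, a subunit of the factor, at 915 and 1749 UPM. At 2-fold none of the 12 was lower, beside 256 of the 10237 genes tested.

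The counts of this paragraph stand beside 11.9% of all genes higher and 7.53% lower. Among the rest of the CXCR3 axis, Pf4, another chemokine, stood at 885 UPM in Tgfbr2-KO and 1247 UPM in control cells. Dpp4, the protease that trims CXCL9 and CXCL10, stood at 12.3 and 5.28 UPM, 2.34-fold higher. Of 8 other CXC chemokine genes tested 2 were higher and 5 lower, the 5 including the neutrophil attractants Cxcl1 (261 UPM in Tgfbr2-KO and 651 UPM in control cells) and Cxcl2 (5303 and 10492 UPM). Of 12 genes of T cell help 5 were higher and 1 lower, the 5 including Ccl5, which draws T cells through another receptor, at 544 UPM in Tgfbr2-KO and 68.4 UPM in control cells. Il12b, a subunit of the cytokine that drives interferon-gamma production, stood at 22.7 and 10.6 UPM. Of 11 genes of TGF-beta feedback and targets 0 were higher and 5 lower, among them Skil at 276 and 578 UPM and Pmepa1 at 81.7 and 246 UPM.

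The same lists were compared between the chemokine classes within the Tgfbr2-KO pool. The classes are cut on the chemokines, so these are descriptions, and Gbp2 is also a gate gene. Cells with both stood above cells with neither in 15 of 20 interferon-gamma genes, with Jak1 alone lower (12.5% of 5482 genes tested were higher and 16% lower), and in 10 of 13 type I genes. Iigp1 was 11.4-fold higher. Of 12 NF-kB genes 0 were higher and 2 lower in cells with both, beside the same shares of all genes. Outside the activation gates cells with both stood above cells with neither in 10 of 14 interferon-gamma genes, where 9.08% of 4703 genes were higher and 16.1% lower. Cells with Cxcl9 only stood above cells with neither in 10 of 17 interferon-gamma genes and below them in 7 of 12 NF-kB genes, where 12.4% and 14.4% of 5600 genes were higher and lower.

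In cells with Cxcl9 only 4 of 9 type I genes were higher than in cells with neither, where 12.4% of 5600 genes were higher. Cells with Cxcl10 only were also set against cells with neither. There 5 of 15 interferon-gamma, 5 of 9 type I and 2 of 12 NF-kB genes were higher and none of these lists had a lower gene, where 1.74% of 5403 genes were higher and 3.18% lower. Rsad2 was 3.11-fold, Oasl1 2.69-fold, Tnf 1.76-fold and Tnfaip3, an NF-kB feedback gene, 1.52-fold higher. The neutrophil attractant Cxcl1 was 1.93-fold higher. Outside the activation gates 2 of 14 interferon-gamma genes, 4 of 9 type I genes and 2 of 12 NF-kB genes were higher and 1 type I gene was lower, where 1.49% of 5035 genes were higher and 3.99% lower.

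Set directly against each other, cells with Cxcl9 only were higher than cells with Cxcl10 only in 7 of 16 interferon-gamma genes and lower in 8 of 12 NF-kB genes, with 1 higher and 1 lower of 7 type I genes, where 13.5% and 11.9% of 3522 genes were higher and lower. Gbp2 was 3.60-fold (3.01 to 4.32) higher. Tnf was at 0.236 (0.202 to 0.275), Tnfaip3 at 0.415 and Nfkbia, the NF-kB inhibitor, at 0.445 of the level in cells with Cxcl10 only. Cxcl1 was at 0.202 and Cxcl2 at 0.292. Outside the activation gates 1 of 9 interferon-gamma genes was higher (7.31% of 2245 genes were) and 7 of 12 NF-kB genes were lower (9.8% of genes). The gates take out cells by interferon-induced genes and left fewer of the interferon-gamma list testable, and the Cxcl9 share there was below its free RNA bound, so no loss of a difference is read from these counts. In those cells Tnf stood at 222 UPM in cells with Cxcl9 only and 622 UPM in cells with Cxcl10 only.

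In the control pool few listed genes set cells with Cxcl10 only above cells with neither. Higher were 0 of 12 interferon-gamma genes, 2 of 5 type I genes (Isg15, 2.60-fold, and Oasl1, 2.84-fold) and 1 of 12 NF-kB genes (Tnf, 1.52-fold), where 1.01% of 5247 genes were higher and 3.81% lower. Between the pools, cells with Cxcl10 only held Cxcl10 itself at 1161 UPM in Tgfbr2-KO and 1126 UPM in control cells. In that class 7 of 13 interferon-gamma genes were higher in Tgfbr2-KO cells, where 7.42% of 3249 genes were higher and 3.85% lower. The class is cut on Cxcl10 itself and leaves out cells with both, so its Cxcl10 levels are no comparison of the pools. The summed interferon-gamma list stood at 1926 UPM in Tgfbr2-KO and 1185 UPM in control cells with Cxcl10 only, and at 1615 and 1144 UPM in cells with neither.

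**Figure D4:**
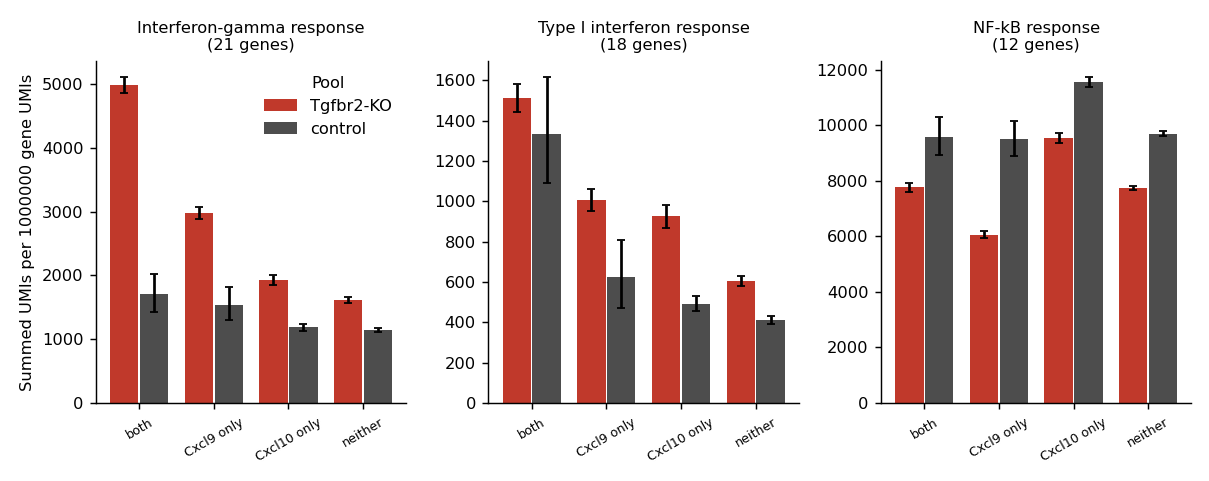
Summed level of the interferon-gamma, type I interferon and NF-kB lists, in UMIs per 1000000 gene UMIs of thinned cells, in cells with both chemokines, Cxcl9 only, Cxcl10 only or neither, for Tgfbr2-KO (red, left) and control cells (grey, right), with exact 95% Poisson intervals. In Tgfbr2-KO cells the interferon-gamma sum was 4985, 2979, 1926 and 1615 UPM over the 4 classes and the NF-kB sum 7764, 6058, 9551 and 7739 UPM, highest in cells with Cxcl10 only.

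The genes whose levels followed the chemokines most closely over single cells were then ranked. Over 2674 Tgfbr2-KO cells the 10 genes most correlated with Cxcl9, of 8540, included Gbp2 (Pearson r = 0.72), Psme2, Serpina3g, Ly6a, Calhm6, Ass1, Psmb8, C3 and Prdx5, with the last at 0.57. The 10 for Cxcl10 were Iigp1 (0.41), Gbp5, Irgm1, Serpina3g, Calhm6, Ifi47, Cxcl9 itself (0.36), Cd274, Nampt and Igtp (0.34). Serpina3g and Calhm6 were on both. Apart from Cxcl9 itself, only Gbp5 of the Cxcl10 list had a lower r with Cxcl9 (0.38) than with Cxcl10 (0.40). The rest followed Cxcl9 more closely than Cxcl10, such as Iigp1 (0.48 with Cxcl9) and Nampt (0.48). The list over all Tgfbr2-KO cells thus gives Cxcl10 no partners of its own. Among the 769 Tgfbr2-KO cells of the activation gates it was otherwise. Of the 10 genes most like Cxcl10 there, only Nampt (0.37 with Cxcl10, 0.38 with Cxcl9) followed Cxcl9 more closely. Iigp1 stood at 0.48 with Cxcl10 and 0.29 with Cxcl9, and Gbp5 at 0.47 and 0.26. In 1896 control cells the Cxcl10 list was Ifih1 (0.25), Ccl4, Isg15, Oasl1, Nfkbia, Ccl3, Ccrl2, Ppp1r15a, Ptgs2 and Tnfaip3, and shared 0 genes with the Tgfbr2-KO list. Iigp1, Gbp5 and Serpina3g were in too few control cells to be ranked there. Ifih1, a sensor of viral RNA, also ranked first for Cxcl10 in Tgfbr2-KO cells outside the activation gates (r = 0.26, and 0.03 with Cxcl9). These correlations share cells, library and depth and carry no p-value. The r between Cxcl9 and Cxcl10 was 0.36 in Tgfbr2-KO cells and 0.11 in control cells.

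Interferon and receptor genes were scarce. Ifng had 2 UMIs in Tgfbr2-KO cells and 1 in control cells. Ifnb1, a type I interferon gene, had 57 UMIs in 29 Tgfbr2-KO cells and 99 UMIs in 35 control cells, of which 4 and 0 were in an activation gate. Cxcl10 was found without thinning in 65.5% (45.7 to 82.1) of Tgfbr2-KO cells with Ifnb1 and 41.8% of the others, and in 65.7% (47.8 to 80.9) of control cells with Ifnb1 and 33.9% of the others. Cxcl9 was found in 34.5% of Tgfbr2-KO cells with Ifnb1 and 39.7% of the others. Cells with Ifnb1 were somewhat deeper, with median totals of 12749 and 10271 UMIs in the Tgfbr2-KO pool and 9081 and 7750 in the control pool, and the part of depth was not tested. Cxcr3, the receptor of both chemokines, had 96 UMIs in 89 Tgfbr2-KO cells and 47 UMIs in 45 control cells, 3.12 and 2.88 UPM.

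Both messages were plentiful outside cells. The 892716 barcodes of at most 100 UMIs that were outside the hashtag table held Cxcl9 at 968 UPM (932 to 1005) and Cxcl10 at 635 UPM (606 to 665), or 1.52 Cxcl9 UMIs (1.44 to 1.62) per Cxcl10 UMI. All kept cells together stood at 1020 and 519 UPM. The mix of the 2 messages in empty droplets, 1.52, lay between the 2.41 of Tgfbr2-KO cells and the 0.148 of control cells. In Ly6c2+ Tgfbr2-KO cells free RNA could give at most 5.95 UPM of Cxcl9, against 2487 UPM observed, and in Folr2/Lyve1/Cd163+ Tgfbr2-KO cells at most 34.6 UPM, against 148 UPM. In the Folr2/Lyve1/Cd163+ cells the share with Cxcl9, 9.86%, was at the bound of 9.85% and is not read as expression.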

How the data were processed

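The labels give 1 droplet 3′ gene library and 1 hashtag library of the same pooled cells. The deposited matrix holds UMI counts per gene and barcode and names Cell Ranger 8.0.0 in its header. Cell Ranger 8.0, Seurat 5.1.0 and the mouse build GRCm38 stand in the submitters' processing notes. The authors' hashtag table gives, per the file headers, assignment probabilities as a fraction and hashtag counts as log10, which equal log10(count + 1) of the matrix. Of the table's 4887 barcodes the deposited assignments put 2738 barcodes in the Tgfbr2-KO pool, 1933 in the control pool, 96 in Multiplet, 66 in Unassigned and 54 in Blank. The last 3 were left out of comparisons, and doublets within a hashtag are not seen. Kept cells had at least 1000 gene UMIs, 500 genes and at most 10% mitochondrial UMIs, leaving 30729204 Tgfbr2-KO and 16298452 control gene UMIs. Thinning to 3000 UMIs left out 83 Tgfbr2-KO and 80 control cells.

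Gates were applied in order to thinned counts: proliferating (10 genes, at least 3 UMIs), C1q-low (3 genes, under 2), then Ly6c2 (1) or patrolling markers (8 genes, 2), and in C1q+ cells Folr2/Lyve1/Cd163 (2), Fn1/Gpnmb (3) and Mrc1 (1). Levels have exact Poisson, shares Clopper-Pearson and ratios conditional binomial intervals. A gene was called higher or lower at 1.5-fold with at least 100 UMIs over both groups. Genes most like a member had the highest Pearson correlation of ln(1 + UMIs per 10000) among genes in at least 5% of cells. The free RNA bound is the smallest ratio, over genes with at least 500 UMIs in empty droplets, of the upper level in cells to the level there. The text names the members, genes of set lists and these correlated genes. One gene of these lists is not reported here. Members and lists were chosen with earlier results of these data known. The code was tested on simulated data. Tools were Python 3.11.15, numpy 2.4.6, scipy 1.17.1, pandas 2.3.3, matplotlib 3.10.9, R 4.3.3 and edgeR 4.0.16 (trimmed mean scaling only). Alternatives covered cell filters, assignment probability, thinning depth, scaling, gates, folds and empty droplet limits.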

Additional observations from a re-analysis of the deposited data

Results flagged for a closer look

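Barcodes that the deposited table assigns to neither genotype also carried the chemokines, and enter no comparison of the report. Cxcl9 stood at 789 UPM (747 to 834) in 95 Multiplet cells, at 684 UPM (587 to 792) in 44 Blank cells and at 145 UPM (113 to 181) in 65 Unassigned cells, against 43.0 UPM in the control pool. Cxcl10 stood at 383 UPM (353 to 414) in Multiplet, 348 UPM (298 to 403) in Unassigned and 248 UPM (192 to 316) in Blank cells, against 291 UPM in the control pool, so the Blank interval holds the control value. After thinning 32.6% of Multiplet, 5.66% of Unassigned and 11.8% of Blank cells held Cxcl9.

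In proliferating cells outside the activation gates Cxcl10 was lower in Tgfbr2-KO than in control cells, by a log2 ratio of -0.54, while over all cells it was higher, at 1.13. Of these proliferating cells 30.9% in the Tgfbr2-KO pool and 50.0% in the control pool held Cxcl10. The difference between the cell states was not tested.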

How the results depend on the processing

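No paired analysis was possible because each genotype is 1 pool. No replicate could be left out for the same reason. The log2 ratios of Cxcl9 and of Cxcl10 over all cells kept their direction under every alternative run. The log2 ratio of Cxcl9, 5.16, was 5.28 at an assignment probability of at least 0.99, 4.58 without activated cells, 6.54 with the largest free RNA subtracted and 5.85 without the highest control cell, an alternative chosen after seeing the data. That of Cxcl10, 1.13, was 0.46 without activated cells, 1.18 without proliferating cells, 1.07 under TMM scaling and 0.97 as a mean over cells. Cxcl9 per Cxcl10 UMI in Tgfbr2-KO cells was 1.06 without activated and 2.49 without proliferating cells, and in control cells 0.0609 without activated cells and 0.0913 without the highest cell. Thinning to 1500 UMIs, 5000 UMIs, no thinning and a minimum of 2 UMIs gave Cxcl9 shares of 28.3, 37.0, 39.7 and 27.4% in Tgfbr2-KO cells and 1.59, 4.18, 5.64 and 0.936% in control cells. The same settings gave Cxcl10 shares of 23.1, 35.5, 42.1 and 20.6% in Tgfbr2-KO cells and 18.2, 30.6, 34.5 and 15.5% in control cells. They gave shares with both of 11.3, 18.4, 23.3 and 10.0% in Tgfbr2-KO cells, and 0.582, 3.16 and 0.441% in control cells at 1500 UMIs, no thinning and 2 UMIs. Without activated cells the Tgfbr2-KO shares with Cxcl9, Cxcl10 and both were 16.5, 23.9 and 6.64%. The Cxcl10 share then stood below the 25.3% of control cells, whereas it was above the control share with activated cells included. Empty droplets of at most 10 UMIs held Cxcl10 at 540 UPM.

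Of results by state, Cxcl10 in proliferating cells reversed, at a log2 ratio of -0.13 with gate minimums raised by 1 and -0.54 without activated cells, and the cause was not tested. At 2-fold, Tgfbr2-KO cells with both against neither had 0 of 20 interferon-gamma and 0 of 12 NF-kB genes lower, where 368 of 5482 genes were lower. Cells with Cxcl9 only against Cxcl10 only had 3 of 16 interferon-gamma genes higher and 5 of 12 NF-kB genes lower. Over all 3522 genes tested there, 119 were higher and 173 lower at 2-fold. Control cells with Cxcl10 only against neither had 0 of 12 NF-kB genes higher, where 8 of 5247 genes were higher. The setting outside the activation gates was chosen after seeing the data and used 1.5-fold. Cells with both against neither there had 1 of 12 NF-kB genes lower, where 16.1% of 4703 genes were lower. Cells with Cxcl9 only against Cxcl10 only had 1 of 9 interferon-gamma genes higher, where 7.31% of 2245 genes were higher. Over all genes, 1218 higher and 771 lower in Tgfbr2-KO cells became 483 and 256 at 2-fold, and 198 and 161 where 100 UPM was also required. Depth limits the control classes with Cxcl9, of 26 and 30 cells, and the rarer control states.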
